A study of Mus musculus with 2 samples.

Results

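The genes described here handle lactate and pyruvate, and 10 of them were taken by name: Ldha, Ldhb, Slc16a1, Slc16a3, Bsg, Pdk1, Pdha1, Mpc1, Mpc2 and Ep300. All 10 were found in both count matrices, among 32245 gene symbols. The cells came from subcutaneous mouse tumours. Hosts of 1 library ate a control diet, and hosts of the other a diet without serine and glycine, called SG-free here. The labels used here give no strain, sex, age, tumour line or number of animals per library, and their extraction text speaks of human heart tissue although the organism is mouse and the gene symbols are those of the mouse. The assay, a droplet method of 10x Genomics, counts captured RNA molecules as unique molecular identifiers (UMIs) and reads T cell receptor contigs of the same cells. With 1 library per diet there was no replicate check and no test between diets. All intervals in parentheses are exact 95% intervals and cover counting error only.

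Lactate dehydrogenase, a tetramer of Ldha and Ldhb subunits, interconverts pyruvate and lactate. Lactate crosses the plasma membrane through the monocarboxylate transporters Slc16a1 (MCT1) and Slc16a3 (MCT4), which need the chaperone basigin (Bsg) to reach the surface, and MCT4 is known as the exporter of glycolytic cells. Pyruvate enters mitochondria through a carrier made of Mpc1 and Mpc2 and is oxidised by pyruvate dehydrogenase, whose catalytic subunit Pdha1 is switched off by the kinase Pdk1. Ep300 is a lysine acyltransferase that has been described as able to attach lactyl groups. The title of the study names lactylation of PD-L1, the checkpoint ligand encoded by Cd274. The counts measure RNA, and neither lactate nor lactylation was measured in these files.

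Ldha and Pdk1 are textbook targets of hypoxia-inducible factor, as is Car9, a carbonic anhydrase whose RNA is a common hypoxia marker and which divides the cells further on. The RefSeq promoter table (build GRCm38.p6) matched 9 of the 10 members. A form of the core of the hypoxia-response element, ACGTG, was searched on both strands (CACGT when read on the gene's strand). The search covered the 250 bases before each annotated start, and overlapping matches such as CACGTG were counted as 1 site. Other forms of the core were not searched. ACGTG was found before a start of 3 of the 9 matched members and before a start of 18.5% of all 27025 genes in the table. Windows of at most 30 bases are shown for those members and for Car9, the gene used to divide the cells. They are written on the strand of the gene, the plus strand in each case, with the matched letters in capitals.
Ldha, 145 bases before the start, chr7:46845647-46845676: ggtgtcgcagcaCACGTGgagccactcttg
Ldha, 48 bases before the start, chr7:46845744-46845773: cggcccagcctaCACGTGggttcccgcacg
Ldha, 34 bases before the start, chr7:46845758-46845786: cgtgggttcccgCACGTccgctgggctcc
Slc16a3, 27 bases before the start, chr11:120949028-120949056: caggcagcggtgACGTGcgcgggggacgt
Slc16a3, 14 bases before the start, chr11:120949041-120949066: cgtgcgcgggggACGTGccgcgcgac
Slc16a1, 200 bases before the start, chr3:104638452-104638481: gcggcgccgggtCACGTGgcgggaaggggg
Car9, 18 bases before the start, chr4:43506996-43507024: ctatttccgatgCACGTacagcccgtcca
Ldha held 3 sites before 1 of its 2 annotated starts and Slc16a3 held 2, while 1.95% of all starts held 2 or more. The Ldha windows lie within the outer bounds of the gene (chr7:46842274-46855627), since its other start is upstream, and so do those of Slc16a3 (chr11:120948484-120959000). Slc16a1 and Car9 held 1 site each, upstream of the gene. These letters were not in the windows of Pdk1, Pdha1, Mpc1, Mpc2, Ep300, Ldhb or Cd274. A match is a stretch of letters and shows no binding.

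The control library held 161332426 UMIs and the SG-free library 157234945, and 8262 and 7913 cells were kept. T cells were barcodes with a T cell receptor beta contig, 242 in the control and 243 in the SG-free library. Macrophages had at least 0.1% of their UMIs from C1qa, C1qb and C1qc and no Krt20 UMI, 694 and 632 cells. The class meant to hold tumour cells had at least 1 Krt20 UMI and no Ptprc UMI, 4121 and 4613 cells. The other markers of the immune classes were present: 6 T cell markers summed to 2145 and 3001 CPM (UMIs of a gene per 1000000 UMIs of the class) in T cells and 7 macrophage markers to 17174 and 17833 CPM in macrophages. Epithelial markers were close to absent from the Krt20 class, with Epcam at 0.0092 and 0 CPM, Krt19 at 0 and 0.113 CPM and Krt18 at 24.1 and 19.6 CPM, while the stromal proteoglycan gene Dcn stood at 260 and 497 CPM. The class is called Krt20 cells here, after its rule. Of the T cell barcodes, 17 and 29 also had a Krt20 UMI and held 32.0% and 43.5% of the T cell UMIs, so T cell values are also given for the 212 and 202 barcodes without Krt20 and C1q UMIs. The 4 haemoglobin genes summed to 1465 CPM in those control T cells, to 337 CPM in control macrophages and to 0 in both SG-free classes. There were 104 barcode sequences common to both libraries.

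Ldha was abundant in every class, and highest in the Krt20 cells. There it stood at 2433 CPM (2423 to 2442) in the control and 2806 CPM (2797 to 2816) in the SG-free library. Macrophages held 1606 CPM (1577 to 1635) and 1695 CPM (1665 to 1726). T cells without Krt20 and C1q UMIs held 1670 CPM (1590 to 1753) and 1692 CPM (1621 to 1764). Krt20 cells were thus above both immune classes in both libraries, with macrophage over Krt20 ratios of 0.660 (0.648 to 0.673) and 0.604 (0.593 to 0.615). Macrophages and these T cells did not differ beyond counting error, with ratios of 0.962 (0.913 to 1.01) and 1.002 (0.957 to 1.05). After each cell was thinned to 5000 UMIs, an Ldha UMI was still seen in 99.4% and 98.4% of Krt20 cells and in 98.9% and 98.7% of macrophages.

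Ldhb, the subunit typical of oxidative tissue, was scarce everywhere and lowest in the Krt20 cells. These held 1 Ldhb UMI beside 264375 Ldha UMIs in the control library and 6 beside 324111 in the SG-free library. Macrophages held 83 and 118 Ldhb UMIs, 11.5 CPM (9.13 to 14.2) and 16.7 CPM (13.9 to 20.0). As a share of Ldha plus Ldhb UMIs, Ldhb made up 0.709% (0.565 to 0.878) and 0.977% (0.810 to 1.17) in macrophages and 0.000378% (9.58e-06 to 0.00211) and 0.00185% (0.000679 to 0.00403) in Krt20 cells. In T cells without Krt20 and C1q UMIs the share was 0.244% (0.0665 to 0.623) and 0.411% (0.188 to 0.778), from 4 and 9 UMIs. The macrophage and Krt20 intervals lay far apart in both libraries, while those of T cells and macrophages overlapped in the control.

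The lactate transporters had opposite orders across the classes. Slc16a3 stood at 158 CPM (149 to 168) in control and 161 CPM (151 to 170) in SG-free macrophages, against 33.2 CPM (32.1 to 34.3) and 43.0 CPM (41.8 to 44.2) in Krt20 cells. Macrophages were 4.78-fold (4.47 to 5.11) and 3.74-fold (3.50 to 3.99) above Krt20 cells, and 4.71-fold (3.33 to 6.87) and 3.003-fold (2.35 to 3.89) above T cells without Krt20 and C1q UMIs. At 5000 UMIs per cell, an Slc16a3 UMI was seen in 41.7% and 48.0% of macrophages and in 13.8% and 17.8% of Krt20 cells, so the difference also showed in the number of positive cells. Slc16a1 stood at 18.9 CPM (18.1 to 19.7) and 15.8 CPM (15.1 to 16.5) in Krt20 cells and at 5.11 and 5.25 CPM in macrophages, from 37 UMIs in each library, which gave macrophage over Krt20 ratios of 0.271 (0.190 to 0.375) and 0.332 (0.233 to 0.460). Bsg was highest in Krt20 cells, at 578 and 725 CPM against 498 and 531 CPM in macrophages, ratios of 0.861 (0.833 to 0.891) and 0.733 (0.709 to 0.757). Emb (embigin), an alternative chaperone of the carriers, was at 132 and 72.3 CPM in macrophages and at 0.856 and 0.788 CPM in Krt20 cells.

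Genes of pyruvate entry were even across the classes. Mpc1 had macrophage over Krt20 ratios of 0.967 (0.898 to 1.04) and 0.964 (0.892 to 1.04), and Mpc2 of 1.05 (0.982 to 1.13) and 1.14 (1.07 to 1.23). Pdha1 was lower in macrophages, at 40.8 and 47.1 CPM against 84.3 and 84.0 CPM in Krt20 cells, ratios of 0.483 (0.429 to 0.543) and 0.561 (0.501 to 0.625). Pdk1 in macrophages, at 17.4 and 18.3 CPM, was 0.825 (0.684 to 0.987) and 0.548 (0.456 to 0.653) times its Krt20 level. RNA of Pdha1 and of Pdk1 was thus lower in macrophages than in Krt20 cells in both libraries. Ep300 was higher in macrophages, 31.4 and 26.7 CPM against 19.6 and 22.1 CPM, ratios of 1.60 (1.39 to 1.84) and 1.21 (1.03 to 1.40), and higher in T cells without Krt20 and C1q UMIs, ratios of 1.77 (1.22 to 2.48) and 1.96 (1.48 to 2.56).

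**Figure D1:**
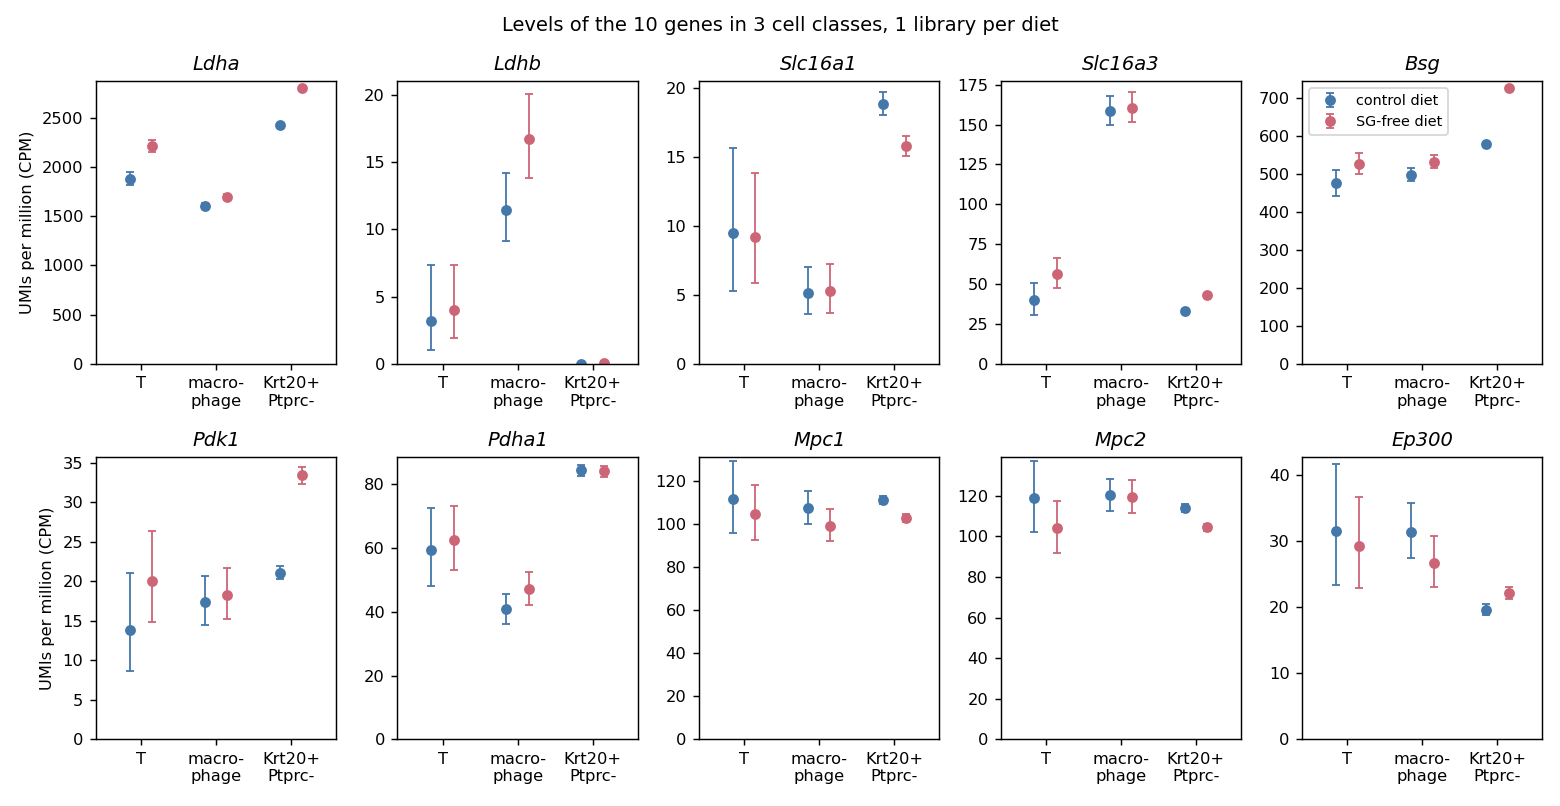
Level in CPM (linear axis from 0) of each of the 10 genes in T cells, macrophages and Krt20-positive, Ptprc-negative cells of the control (blue) and SG-free (red) library; points are class sums and bars exact 95% Poisson intervals. Slc16a3 and Ldhb are highest in macrophages, and Ldha, Slc16a1, Bsg and Pdha1 in the Krt20 cells; heights of different genes cannot be compared.

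Between the diets, the Krt20 cells of the SG-free library had more RNA of the genes that make and export lactate. Ldha had an SG-free over control ratio of 1.15 (1.15 to 1.16) at the levels given above, Slc16a3 of 1.30 (1.24 to 1.35) and Bsg of 1.254 (1.24 to 1.27). Pdk1 went from 21.1 CPM (20.2 to 22.0) in the control to 33.4 CPM (32.3 to 34.5) in the SG-free library, a ratio of 1.58 (1.503 to 1.67). Slc16a1 was lower, at 0.837 (0.785 to 0.892). Pdha1 stood at 84.3 and 84.0 CPM, a ratio of 0.996 (0.968 to 1.03), and Ep300 at 19.6 and 22.1 CPM, a ratio of 1.13 (1.07 to 1.20). Mpc1 had a ratio of 0.927 (0.904 to 0.951) and Mpc2 of 0.915 (0.892 to 0.938), both close to the median gene, whose ratio was 0.932. Scaled to that median, Mpc1 came to 0.992, Mpc2 to 0.979 and Pdha1 to 1.07. Krt20 itself, the gene of the class rule, stood at 158 and 248 CPM in these cells, a ratio of 1.57. Its part in which cells entered the class in each library was not tested.

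Genes were sorted by size, as past the fold at a ratio of at least 1.5 or at most its inverse, where their mean level was at least 20 CPM and 1 library held at least 30 UMIs. In Krt20 cells 8 of the 10 members were at that level, all but Ldhb and Slc16a1, and 1 of the 8, Pdk1, was past the fold. Of all 5463 genes at that level, 2.31% were past it upward and 1.13% downward. The median log2 ratio was 0.17 over the 8 members and -0.09 over all genes. Of the glycolysis list 4 of 10 measured genes were past it upward, Pgk1 at 1.65, Pfkl at 1.53, Aldoa at 1.51 and the glucose carrier Slc2a1 at 1.51, and 0 downward. Of the hypoxia list 5 of 9 were past it upward, among them Ddit4 at 3.43 and Ndrg1 at 2.03. Of the interferon-gamma list 6 of 10 were past it upward, among them Iigp1 at 2.18 and Gbp2 at 1.80, and 0 downward. None of the 4 measured genes of the pyruvate dehydrogenase complex and its regulators, the 8 other pyruvate enzymes or the 7 acyl-lysine writers and erasers was past it. Cd274 stood at 11.8 CPM (11.2 to 12.5) and 23.9 CPM (23.0 to 24.8), a ratio of 2.02 (1.89 to 2.16).

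The share of Krt20 cells with Car9 also differed between the libraries. Cells with at least 2 Car9 UMIs were 8.10% (7.29 to 8.98) of the control and 18.8% (17.7 to 20.0) of the SG-free Krt20 cells, and at 5000 UMIs per cell a Car9 UMI was seen in 6.05% and 12.9%. At 1000 UMIs per cell it was seen in 1.51% and 3.21% of Krt20 cells and in 0.598% (0.163 to 1.52) and 0.651% (0.178 to 1.66) of macrophages, 4 cells in each library. Within cells without a Car9 UMI the diet ratio of Ldha was 1.05 (1.05 to 1.06), and within cells of at least 2 it was 1.02 (1.01 to 1.03), both nearer to 1 than over all cells. At 5000 UMIs per cell, cells without Car9 had a mean of 10.7 Ldha UMIs in the control and 10.5 in the SG-free library. That is the opposite order, so no order is read for that group. With the SG-free Car9 groups weighted as in the control library, a calculation added after the data were seen, the diet ratio came to 1.04 for Ldha, 1.09 for Bsg, 1.16 for Slc16a3 and 1.38 for Pdk1. Pdk1 was then no longer past 1.5-fold, and it stood at 1.49 (1.39 to 1.59) without Car9 and 1.13 (1.02 to 1.26) with at least 2 Car9 UMIs. Slc16a3 was on the other side of 1 in the cells of at least 2 Car9 UMIs, at 0.962 (0.879 to 1.05). The Cd274 ratio was 2.21 at the control weights. Cells with neither Krt20 nor Ptprc UMIs, outside the rule (2746 and 1933 cells), had diet ratios of 1.23 for Ldha, 1.20 for Slc16a3, 1.41 for Bsg and 1.76 for Pdk1. They were a different mix of cells. Their 6 fibroblast markers summed to 1965 and 1901 CPM, against 492 and 726 CPM in Krt20 cells. Their median depth was 12367.5 and 10909 UMIs, against 25087 and 23206.

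In macrophages the members were close to level between the diets. Ldha had a ratio of 1.06 (1.03 to 1.08), Bsg of 1.07 (1.02 to 1.12), Slc16a3 of 1.01 (0.933 to 1.10) and Pdk1 of 1.05 (0.816 to 1.35). Ldhb had the largest ratio, 1.46 (1.09 to 1.96), at levels under 20 CPM. Of the 7 members measured 0 were past 1.5-fold, where 2.63% of 5523 genes were past it upward and 2.19% downward, and the median log2 ratio was 0.02 over the members and -0.10 over all genes. Emb was lower in the SG-free library, with a ratio of 0.548 (0.491 to 0.611). Hk2, the hexokinase that starts glycolysis, was higher, at 1.76 (1.42 to 2.19), and 3 of 8 hypoxia-list genes were past the fold, Vegfa at 3.27 (2.63 to 4.09), Ddit4 at 1.89 and Ndrg1 at 1.82. Cd274 stood at 67.7 CPM (61.8 to 74.0) and 146 CPM (137 to 155) in macrophages.

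In T cells the values depended on which barcodes were counted. Over all T cells Ldha stood at 1884 CPM (1817 to 1953) and 2217 CPM (2159 to 2276), a ratio of 1.18 (1.13 to 1.23). Over the barcodes without Krt20 and C1q UMIs the ratio was 1.01 (0.9497 to 1.08). Bsg turned from 1.11 (1.01 to 1.21) to 0.838 (0.729 to 0.964) in the same way. Krt20 itself stood at 54.3 and 88.9 CPM and Car9 at 11.4 and 32.8 CPM in the full set of T cells; how far RNA of other cells enters the full set was not tested. The summed Slc16a3 level was higher in the SG-free library in both sets, 39.8 and 56.4 CPM (ratio 1.42, 1.05 to 1.94) over all T cells and 33.7 and 53.5 CPM (1.59, 1.04 to 2.48) from 33 and 69 UMIs over the smaller set. Cells thinned to 1000 UMIs went the other way, with an Slc16a3 UMI in 5.24% and 3.38% of all T cells and in 4.02% and 3.06% of the smaller set, so no order is read from either. Median T cell depth was 2754 and 5845 UMIs.

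Of the 7 members measured in all T cells 0 were past 1.5-fold, where 4.24% of 5968 genes were past it upward and 6.94% downward. Without Krt20 and C1q barcodes 1 of 7, Slc16a3, was past it, where 10.2% of 5462 genes were past it upward and 11.3% downward, so the count is near that of all genes. The median log2 ratio of the members was 0.07 over all T cells and -0.02 over the smaller set, against -0.05 and 0.02 over all genes. Emb was lower here too, at 0.353 (0.278 to 0.446) over all T cells and 0.436 (0.338 to 0.560) over the smaller set. Of 9 measured acyl-lysine writers and erasers 1 was past 1.5-fold in each set, the writer Kat7, at 0.504 (0.314 to 0.804) and 0.478 (0.267 to 0.838). That count is near the share of all genes.

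The libraries differed in the kinds of T cells they held. CD8-called cells, with a Cd8a or Cd8b1 UMI and no Cd4 UMI, were 69 of 242 in the control and 162 of 243 in the SG-free library, and CD4-called cells were 55 and 30. Median depth of the CD8-called cells was 3810 and 8451.5 UMIs, and the part of depth in these calls was not tested. Among barcodes without Krt20 and C1q UMIs, a split added after the data were seen, Ldha in CD8-called cells stood at 1320 CPM (1199 to 1451) and 1618 CPM (1541 to 1698), a ratio of 1.23 (1.10 to 1.37). CD4-called cells held 1946 CPM (1787 to 2117) and 2630 CPM (2346 to 2939), a ratio of 1.35 (1.17 to 1.56). Cells called neither held 1769 CPM (1636 to 1910) and 1449 CPM (1260 to 1659). Ldha was thus higher in the SG-free library within each called kind, and higher in CD4-called than in CD8-called cells of both libraries, while the sum over all kinds had a ratio of 1.01. Slc16a3 in CD8-called cells stood at 18.3 CPM (6.71 to 39.8) and 49.7 CPM (37.0 to 65.4), a ratio of 2.72 (1.17 to 7.75) that rests on 6 and 51 UMIs.

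**Figure D2:**
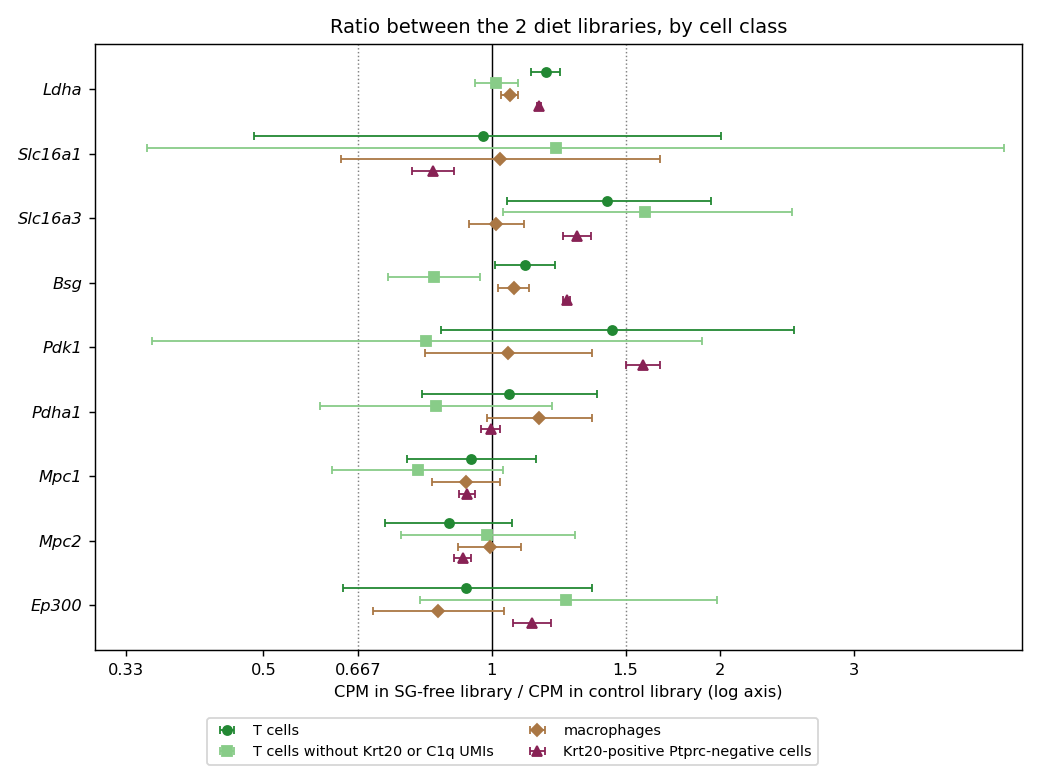
Ratio of CPM in the SG-free over the control library (log axis) for 9 members in T cells, T cells without Krt20 or C1q UMIs, macrophages and Krt20-positive, Ptprc-negative cells; bars are exact 95% intervals for counting error and dotted lines mark 1.5-fold either way. Ldhb is left out because Krt20 cells held 1 and 6 UMIs of it; Pdk1 in the Krt20 cells (1.58) and Slc16a3 in the smaller T cell set (1.59) are the points past a dotted line.

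Split by Car9, Krt20 cells differed in Ldha by more than the libraries did. Ldha stood at 2184 CPM (2175 to 2194) in control cells with no Car9 UMI, 3275 CPM (3236 to 3314) with 1 and 4077 CPM (4036 to 4118) with at least 2. In the SG-free library the levels were 2299 CPM (2288 to 2309), 3273 CPM (3238 to 3309) and 4152 CPM (4128 to 4177). Cells with at least 2 Car9 UMIs were 1.87-fold (1.85 to 1.89) above cells with none in the control and 1.81-fold (1.79 to 1.82) in the SG-free library. At 5000 UMIs per cell the median was 9 Ldha UMIs in cells without Car9 and 21 in cells with at least 2, in both libraries. The 10th percentile of the latter, 11 and 12 UMIs, was above the median of the former, although the full ranges overlapped.

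**Figure D3:**
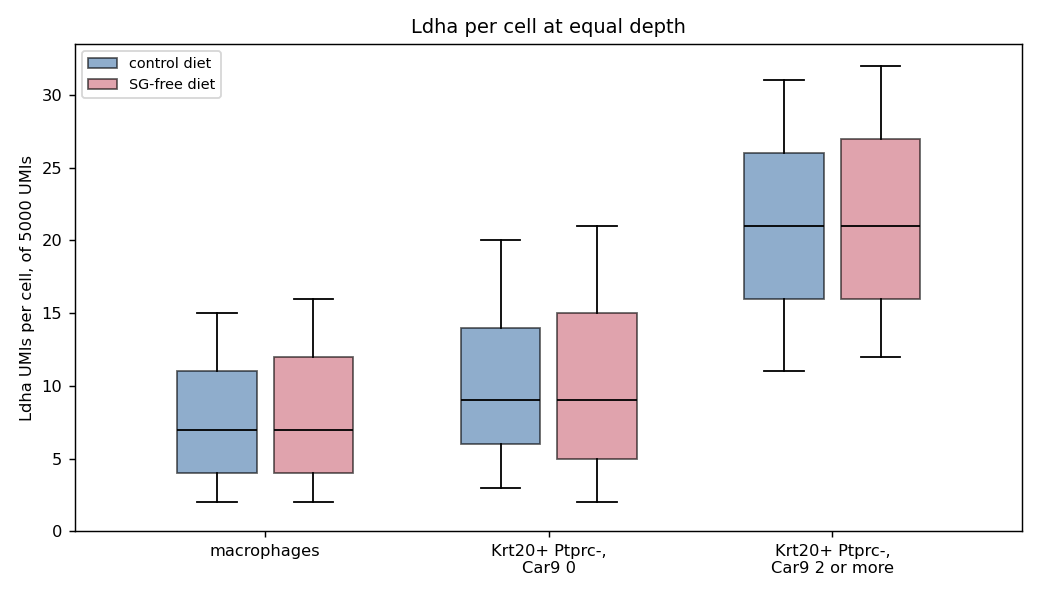
Ldha UMIs per cell after thinning to 5000 UMIs, in macrophages and in Krt20-positive, Ptprc-negative cells with 0 or at least 2 Car9 UMIs, for the control (blue) and SG-free (red) library. Lines in the boxes are medians (7, 9 and 21 UMIs in each library), boxes the 25th to 75th and whiskers the 10th to 90th percentile of 563, 3431 and 333 control and 537, 3325 and 867 SG-free cells.

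The genes of lactate export and the kinase gene Pdk1 went the same way as Ldha. Pdk1 stood at 17.2 and 48.2 CPM in control cells with 0 and at least 2 Car9 UMIs and at 25.5 and 54.5 CPM in the SG-free library, ratios of 2.81 (2.52 to 3.12) and 2.13 (1.99 to 2.28). Slc16a3 stood at 27.8 and 68.5 CPM and at 34.2 and 66.0 CPM, ratios of 2.47 (2.26 to 2.69) and 1.93 (1.81 to 2.05). Bsg stood at 511 and 1056 CPM and at 553 and 1222 CPM, ratios of 2.07 (2.02 to 2.11) and 2.21 (2.18 to 2.24). Cells with 1 Car9 UMI lay between the others for each of these genes. Slc16a1 went the other way, 19.6 and 13.0 CPM in the control and 17.2 and 11.6 CPM in the SG-free library, ratios of 0.664 (0.549 to 0.798) and 0.675 (0.595 to 0.765). In the control library its ratio was 0.937 (0.587 to 1.43) when cells were thinned first and split at 1 Car9 UMI. The transporters thus differed in direction.

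Genes of pyruvate entry and oxidation were nearer to 1. Mpc1 had ratios of 0.822 (0.767 to 0.880) and 0.862 (0.824 to 0.902), Mpc2 of 0.903 (0.845 to 0.964) and 0.969 (0.927 to 1.01), and Pdha1 of 0.996 (0.925 to 1.07) and 1.05 (0.9998 to 1.10). Ep300 had ratios of 0.815 (0.687 to 0.960) and 0.915 (0.831 to 1.01), and 1.12 (0.735 to 1.64) in control cells thinned first and split at 1 Car9 UMI. Split in that way, Pdha1 in the SG-free library came to 1.246 (1.09 to 1.42). The median log2 ratio of all genes was -0.12 in both libraries, a ratio of 0.913 and 0.910. Relative to it, Mpc2 came to 0.986 and 1.06, changing side in the SG-free library, Pdha1 to 1.09 and 1.15, and Mpc1 to 0.897 and 0.942.

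Past 1.5-fold upward were 4 of the 7 members measured in the control and 4 of 8 in the SG-free library, Ldha, Slc16a3, Bsg and Pdk1 in both, and 0 were past it downward. Of all genes measured, 1.52% of 5401 and 1.67% of 5268 were past it upward, and 2.56% and 3.55% downward. The members' median log2 ratio was 0.90 over the 7 and 0.46 over the 8. The sets differ by Ep300, which reached a mean of 20 CPM only in the SG-free library, so these medians cannot be compared in size. All 10 and all 12 measured glycolysis genes were past it upward, led by Pgk1 (3.17 and 2.97) and Slc2a1 (2.39 and 2.35), and so were 9 and 8 of 9 hypoxia-list genes, such as Ankrd37 (5.14 and 3.97) and Ero1l (4.30 and 3.997). Pkm, whose product is pyruvate, was at 1.73 and 1.68. None of the 4 measured genes of the pyruvate dehydrogenase complex and its regulators and none of the 7 acyl-lysine writers and erasers was past it. Of the interferon-gamma list 7 of 9 and 7 of 10 were past it downward, led by Iigp1 (0.319 and 0.413), and Cd274 had ratios of 0.580 (0.449 to 0.739) and 0.440 (0.390 to 0.494). Median depth was 25029 UMIs without Car9 and 25614.5 with at least 2 in the control, and 21428 and 27470.5 in the SG-free library. The 7 macrophage markers summed to 39.9 and 59.7 CPM in the control and to 36.8 and 51.8 CPM in the SG-free library. The 5 endothelial markers summed to 5.04 and 2.75 CPM and to 14.3 and 1.78 CPM in the same order. The part of either set was not tested. The mean of the Ldha ratios within deciles of depth was 2.01 and 1.98.

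**Figure D4:**
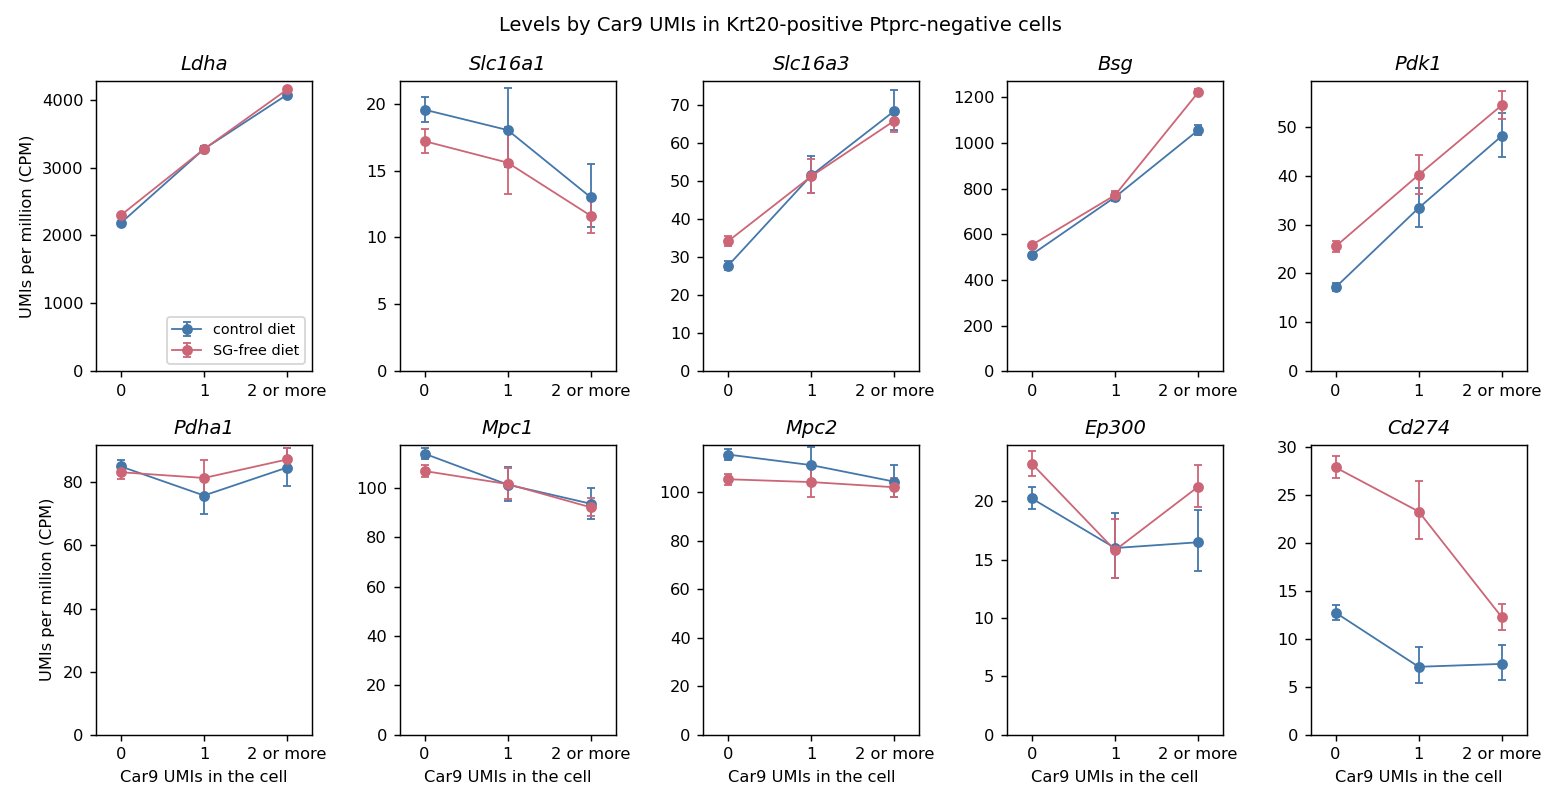
Level in CPM (linear axis from 0) of 9 members and Cd274 in Krt20-positive, Ptprc-negative cells with 0, 1 or at least 2 Car9 UMIs, for the control (blue) and SG-free (red) library; bars are exact 95% Poisson intervals. Ldha, Slc16a3, Bsg and Pdk1 climb with Car9 in both libraries, Slc16a1 and Cd274 are lower at 2 or more than at 0, and Pdha1 and Mpc2 are nearly flat.

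Across single Krt20 cells thinned to 5000 UMIs (4064 control and 4539 SG-free cells), Spearman's rho of Ldha was 0.42 and 0.63 with Bsg, 0.25 and 0.24 with Slc16a3 and 0.19 and 0.20 with Pdk1. With Slc16a1, Pdha1, Mpc1, Mpc2 and Ep300 it lay between -0.06 and 0.06. These values describe cells that share a library and a depth, and many are sparse, as a Pdk1 UMI was seen in 10.5% and 15.3% of the thinned cells. The genes most like Ldha among 5225, by mean rho over both libraries, were Eno1 (0.76), Pgk1 (0.73), Cfap77 (0.72), Tpi1 (0.69) and Mif (0.67). Bsg ranked 12, Slc16a3 64 and Pdk1 90.

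Cd274 was highest in the Krt20 cells with the least Ldha. In the control library it stood at 22.2 CPM in the tercile of thinned cells with the fewest Ldha UMIs (up to 8, 1595 cells), 8.24 CPM in the middle (1213 cells) and 11.1 CPM in the tercile with the most (over 14, 1256 cells). In the SG-free library it stood at 59.8, 26.4 and 10.8 CPM, with limits of 8 and 16 Ldha UMIs and 1690, 1364 and 1485 cells. The high over low ratio was 0.502 (0.375 to 0.666) from 70 and 177 Cd274 UMIs in the control and 0.180 (0.141 to 0.229) from 80 and 505 UMIs in the SG-free library. The control ratio moved with the depth and the random draw, to 0.328 at 2000 UMIs, 0.300 at 10000 UMIs and 0.343 with another draw. A Cd274 UMI was seen in 5.29% and 9.08% of thinned cells. Among 5226 genes ranked by rho with Cd274, Ldha was 5225, although its rho was weak, -0.08 in the control and -0.16 in the SG-free library. The first were the interferon-induced Iigp1, Tgtp1, Gbp2, Ifit1 and Gbp4, with mean rho of 0.24 to 0.18.

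Other genes moved with the Ldha terciles. From the low to the high tercile, Car9 went from 1.88 to 43.8 CPM in the control and from 3.79 to 94.4 CPM in the SG-free library. The 11 interferon-gamma genes summed to 754 and 405 CPM and to 1421 and 606 CPM, and the 6 fibroblast markers to 711 and 414 CPM and to 1312 and 556 CPM. The 7 macrophage markers, of which 0 were at 0 in Krt20 cells, summed to 36.6 and 40.8 CPM and to 36.2 and 43.8 CPM. The 5 endothelial markers summed to 10.4 and 4.14 CPM in the control, with 1.48 CPM in the middle tercile. In the SG-free library they summed to 14.6 and 1.08 CPM. The part of interferon, of fibroblast, macrophage and endothelial transcripts and of Car9 in the Cd274 difference was not tested beyond the following strata. Within cells without Car9 the ratio was 0.373 (0.269 to 0.512) and 0.254 (0.202 to 0.318). Within cells of at least 2 Car9 UMIs it was 1.57 (0.180 to 18.8) from 3 and 2 UMIs in the control and 0.648 (0.290 to 1.38) from 12 and 21 UMIs in the SG-free library, so no difference was detectable at this depth. Within the tercile highest for the interferon-gamma list (1329 and 1258 cells) it was 0.433 (0.300 to 0.615) and 0.351 (0.279 to 0.438). Within the lowest tercile (2074 and 2113 cells) it was 1.18 (0.621 to 2.23), not detectable at this depth, in the control. In the SG-free library it was 0.344 (0.178 to 0.628).

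Sorted by the interferon-gamma list instead, Cd274 stood at 5.30 CPM (3.996 to 6.90) in the lowest and 32.8 CPM (28.6 to 37.5) in the highest tercile of the control, and at 8.42 CPM (6.77 to 10.4) and 94.4 CPM (87.0 to 102) in the SG-free library. Ldha stood at 2634 and 2040 CPM and at 3087 and 1882 CPM in the same terciles, the opposite order. Cells with equal list sums were kept together, so the interferon terciles were unequal in size. From lowest to highest they held 2074, 661 and 1329 control cells and 2113, 1168 and 1258 SG-free cells. Of the other members, Bsg gave Cd274 ratios between its high and low tercile of 0.677 (0.513 to 0.887) and 0.280 (0.222 to 0.350). Cells with an Slc16a3 UMI, set against cells with none, gave 0.889 (0.612 to 1.26) and 0.430 (0.328 to 0.555), and Pdk1 in the same way 1.253 (0.867 to 1.77) and 0.912 (0.737 to 1.12). Pdha1 and Ep300 were likewise split into cells with a UMI and cells with none. For Mpc1 and Mpc2, cells with more than 1 UMI were set against cells with none. Ratios below 1 in the SG-free library were also given by Mpc1, 0.640 (0.472 to 0.852), Pdha1, 0.661 (0.557 to 0.782), and Ep300, 0.716 (0.551 to 0.916). In the control library these were 1.12 (0.757 to 1.62), 0.822 (0.632 to 1.06) and 1.04 (0.690 to 1.53). Mpc2 gave 1.30 (0.906 to 1.84) and 1.40 (1.12 to 1.74), where the control interval includes 1.

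**Figure D5:**
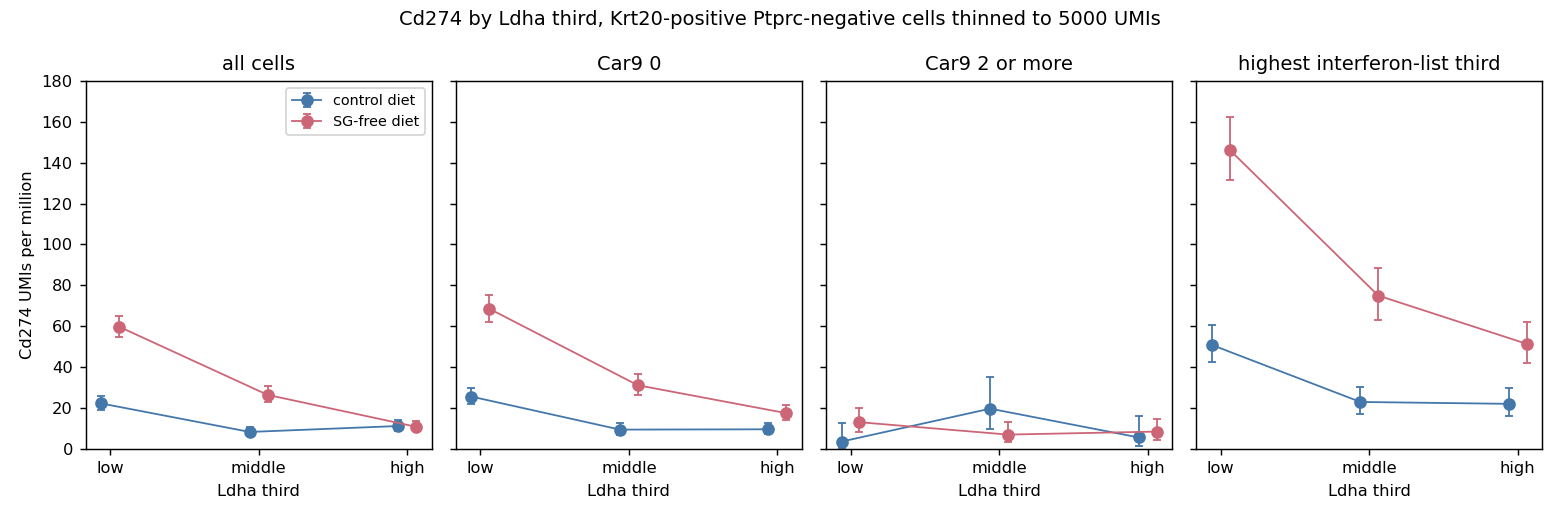
Cd274 level (CPM) in terciles (cells with equal Ldha UMIs kept together) of Krt20-positive, Ptprc-negative cells sorted by Ldha UMIs after thinning to 5000 UMIs, for all cells, cells with 0 or at least 2 Car9 UMIs, and the tercile highest for the interferon-gamma list; control in blue, SG-free in red, bars exact 95% Poisson intervals. Over all SG-free cells Cd274 goes from 59.8 to 10.8 CPM, and in cells with at least 2 Car9 UMIs the low and high terciles overlap.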

How the data were processed

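Gene expression and T cell receptor contigs were measured in 2 mouse tumour libraries, 1 per diet. The deposited values are raw UMI counts, made with Cell Ranger 7.1.0 per the file headers, while version 2.2.2 and mm10 stand in the submitters' processing notes. The deposited barcode and gene name columns and other text columns were used as keys, and the deposited contig tables marked T cells. Barcodes under 300 genes or over 20% mitochondrial UMIs were removed. Scrublet (scanpy 1.11.5) marked 1 and 0 cells as doublets and so did not work; leaving out the 163 and 147 cells scoring over 0.25 was an alternative. UMIs were summed per class and library and divided by totals without T cell receptor and immunoglobulin genes (CPM). Levels have Poisson, ratios conditional binomial and shares Clopper-Pearson 95% intervals (scipy 1.17.1). Log2 ratios used CPM plus 5. Thinning drew UMIs without replacement and left out shallower cells (57 and 74 Krt20 cells at 5000). The ratio steps were run on simulated Poisson counts, the error that the intervals assume, so that run could not show variation between cells or libraries. In it 3.41% of unchanged genes in T cells and 0% in Krt20 cells were past 1.5-fold. Named genes were the members, Cd274, Car9, listed genes past 1.5-fold (up to 4 each way per list) and the 5 genes most like Ldha and Cd274; embigin, Kat7 and the others named come from those lists. Members, lists and rules were chosen with earlier results of these data known. Alternatives covered the cell filter, doublets, class rules, scaling, cell weighting, depth, Car9 limits and fold size. Promoter windows came from RefSeq; Bsg had no entry.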

Additional observations from a re-analysis of the deposited data

Results flagged for a closer look

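The listed genes below had a ratio past 1.5-fold in 1 of the T cell, macrophage and Krt20 classes, or by Car9 in 1 library, and a ratio on the other side of 1 in another, with both intervals excluding 1. None of these differences was tested, since each diet had 1 library. Ddit4 had a Car9 ratio of 1.72 (1.58 to 1.87) in control and 0.771 (0.741 to 0.801) in SG-free Krt20 cells. Ankrd37 had a diet ratio of 2.01 (1.94 to 2.08) in Krt20 cells and 0.780 (0.685 to 0.888) in macrophages. Igtp had diet ratios of 1.54 (1.47 to 1.61) in Krt20 cells, 1.252 (1.11 to 1.41) in macrophages and 0.454 (0.369 to 0.556) in T cells. Gbp2 had ratios of 1.80 (1.76 to 1.84), 1.27 (1.18 to 1.36) and 0.584 (0.495 to 0.689) in the same order. Gbp7 had ratios of 1.69 (1.62 to 1.75) in Krt20 cells and 0.760 (0.629 to 0.919) in T cells. These T cell values are over all T cells. Without Krt20 and C1q UMIs, Gbp2, Igtp and Irgm1 of the 11 interferon-gamma genes were past 1.5-fold downward, and Psmb9 upward. Of all genes, 11.3% and 10.2% were past it in those directions. The list's median log2 ratio was 0.06 in that set and -0.27 over all T cells.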

How the results depend on the processing

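No paired analysis was possible because each diet had 1 library. The T cell diet ratio of Ldha, 1.18, came to 1.01 without Krt20 and C1q barcodes, 1.35 in CD8-called and 1.44 in CD4-called cells, and 1.35 in CD4-called cells without those barcodes. In macrophages Ldha, 1.06, came to 1.13 when scaled to the median gene, 1.11 with cells weighted equally and 1.01 after the library profile was subtracted. In Krt20 cells Ldha, 1.15, came to 1.05 and 1.02 within cells of 0 and at least 2 Car9 UMIs, 1.23 in cells without Krt20, 1.23 scaled to the median gene, 1.09 with equal weights and 1.04 at the control Car9 weights. The Ldha Car9 ratio came in the control to 2.19 at 5 or more Car9 UMIs, 1.83 after thinning, 2.01 within depth deciles and 2.04 scaled to the median gene, and in the SG-free library to 1.97, 1.82, 1.98 and 1.97, and to 1.82 without C1q and contig cells. The Cd274 ratio by Ldha tercile came in the control to 0.328 at 2000 UMIs, 0.300 at 10000, 0.343 with another draw, 0.373 without Car9, 0.753 as the mean within interferon terciles and, reversed, 1.57 with at least 2 Car9 UMIs; in the SG-free library to 0.239 at 10000 UMIs, 0.341 within depth deciles, 0.254 without Car9, 0.648 with at least 2 Car9 UMIs, 0.301 within interferon terciles and 0.251 without cells of 5 or more Cd274 UMIs. With a fold smaller than 1.5 the members past it were 1 in T cells and 3 in Krt20 cells. In T cells without Krt20 and C1q UMIs they were 3. At 2-fold they were 0 in Krt20 cells, 0 in those T cells and 2 by Car9 in the SG-free library. Shares over all genes are given at 1.5-fold only, so these counts cannot be set against the general rate. The causes of these shifts were not tested. The splits of T cells without Krt20 and C1q, the cells without Krt20, the Car9 weights, and the Cd274 ratios without C1q cells or without cells of 5 or more Cd274 UMIs were chosen after seeing the data. Of the other members' alternatives, 177 diet ratios stayed within their counting interval and 53 moved; by Car9 these were 80 and 32. Subtracting the library profile was not run for T cells, because their keratin list stood at 0.701 and 1.04 times the library profile. Depth limits Ldhb, Slc16a1 and Pdk1 in T cells, with 5 to 50 UMIs per library.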
